A study of Homo sapiens with 12 samples.

Results

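The leukocyte integrin subunits and ICAM1, a ligand of the β2 integrins, were followed in THP-1 and U-937 cells after 24 h with honokiol or with the solvent DMSO. The members were taken from the deposited table by a list of gene symbols. They are the 3 α chains ITGAL, ITGAM and ITGAX and their β chain ITGB2, the α chains ITGA4 and ITGA5, the β chains ITGB1 and ITGB7, and ICAM1, and all 9 were found among the 36866 genes of the table. THP-1 and U-937 are human AML cell lines of monocytic origin, both with a complex karyotype per the labels, and each is a single line. Poly(A) mRNA was sequenced in 4 groups of 3 libraries, namely THP-1 with DMSO, THP-1 with honokiol, U-937 with DMSO and U-937 with honokiol. The DMSO concentration was 0.1%. For honokiol, a biphenol of magnolia bark, the labels give 20 µM and 35 µM without saying which line received which. In its cell cycle and qPCR assays the study used 20 µM for THP-1 and 35 µM for U-937. The dose may therefore differ between the sequenced lines, and line and dose could then not be told apart. The study's methods say in general that experiments were repeated, but neither they nor the labels say whether the 3 libraries of a group came from separate cultures, and the p-values then measure the spread between these libraries, which may be technical.

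Integrins are receptors made of 1 α and 1 β chain that anchor a cell to other cells or to matrix and carry signals in both directions across the membrane. The β2 chain ITGB2 (CD18) is restricted to leukocytes and pairs with ITGAL to form LFA-1, with ITGAM to form Mac-1, with ITGAX to form CD11c/CD18 and with ITGAD. LFA-1 binds ICAM1 and related ligands and holds leukocytes to endothelium and to each other, while Mac-1 and CD11c/CD18 also take up complement-coated particles and rise as monocytes mature. ITGA4 pairs with ITGB1 to bind VCAM1 and fibronectin, or with ITGB7 to bind MAdCAM-1 of gut vessels, and ITGA5 pairs with ITGB1 as the classical fibronectin receptor.

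Depth was similar across the 12 libraries, with summed estimated counts from 57406966 to 75065752 and a Pearson r of 0.975 to 0.988 between libraries of the same group (log2 scale, all genes). In each line DMSO replicate 1 stood apart in its mitochondrial transcripts, 13.7% of all counts for THP-1 and 12.6% for U-937, where the remaining libraries had 5.61% to 7.55%. The tests of the members were also computed without this pair of libraries, as were the counts of treatments that do not overlap. The other gene lists, the shares of the chains and the search for similar profiles were not. Of 12 monocytic and myeloid markers, 11 in THP-1 and 10 in U-937 had a mean FPKM of at least 0.5, with CD34 at or under 0.02 FPKM in every library of both lines and MPO at or under 0.17 FPKM in every library of U-937. The T cell markers in the table summed to at most 0.25 FPKM, the 1 erythroid marker reached at most 0.27 FPKM, the epithelial markers summed to at most 0.15 FPKM and the fibroblast markers to at most 0.75 FPKM. FPKM scales the fragments of a gene to transcript length and to the size of the library, so that levels of different genes can be set side by side.

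ITGAL (ENSG00000005844, chromosome 16, 30472719 to 30523185, plus strand, GRCh38) encodes the α chain of LFA-1 and had its lowest level in THP-1 cells with DMSO and its highest in U-937 cells with honokiol. In THP-1 it was measured at 4.94, 3.69 and 5.32 FPKM with DMSO and at 6.65, 9.89 and 9.84 FPKM with honokiol. In U-937 it was measured at 9.87, 11.12 and 7.02 FPKM with DMSO and at 17.96, 18.64 and 22.71 FPKM with honokiol. The treated libraries were all above the DMSO libraries of the same line, whereas treated THP-1 and DMSO-treated U-937 overlapped. The group means were 4.65 ± 0.853, 8.79 ± 1.86, 9.34 ± 2.10 and 19.8 ± 2.57 FPKM (SD, n = 3 each) in that order.

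ITGAM (ENSG00000169896, chromosome 16, 31259967 to 31332892, plus strand) encodes the α chain of Mac-1. It was measured at 7.28, 10.21 and 9.47 FPKM in THP-1 with DMSO and at 10.47, 8.62 and 9.03 FPKM with honokiol. In U-937 it was measured at 3.07, 2.58 and 2.26 FPKM with DMSO and at 3.88, 5.47 and 4.38 FPKM with honokiol. All 6 THP-1 libraries were above all 6 U-937 libraries, the THP-1 treatments overlapped, and treated U-937 libraries were all above their DMSO libraries. ITGAX (ENSG00000140678, chromosome 16, 31355134 to 31382932, plus strand), the CD11c chain of monocytes and dendritic cells, was measured at 6.76, 6.33 and 8.39 FPKM in THP-1 with DMSO and at 8.70, 9.18 and 10.18 FPKM with honokiol. In U-937 it was measured at 2.55, 2.57 and 1.79 FPKM with DMSO and at 3.18, 3.94 and 4.68 FPKM with honokiol. None of the 4 groups overlapped for ITGAX, and the order ran from U-937 with DMSO over U-937 with honokiol and THP-1 with DMSO to THP-1 with honokiol.

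ITGB2 (ENSG00000160255, chromosome 21, 44885953 to 44931989, minus strand), the β chain that these α chains share, was the member with the highest level in every group. It was measured at 114.15, 169.02 and 163.26 FPKM in THP-1 with DMSO and at 179.21, 169.48 and 176.04 FPKM with honokiol. In U-937 it was measured at 87.54, 128.07 and 98.53 FPKM with DMSO and at 125.53, 103.30 and 121.86 FPKM with honokiol. DMSO replicate 1 was the lowest library for ITGB2 in each line, and the treatments overlapped in U-937 but not in THP-1, where the highest DMSO library and the lowest treated library lay within 1 FPKM of each other. ITGB2-AS1 overlaps ITGB2 on the opposite strand over 8628 bases and was at 0.15 to 2.31 FPKM.

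The chains of the fibronectin and VCAM1 receptors were high in both lines. ITGA4 (ENSG00000115232, chromosome 2, 181457202 to 181527450, plus strand) had means of 20.3 ± 2.50 and 17.3 ± 2.53 FPKM in THP-1 with DMSO and honokiol, and 26.2 ± 5.42 and 24.3 ± 4.97 FPKM in U-937 (SD, n = 3 each). ITGA5 (ENSG00000161638, chromosome 12, 54395261 to 54419266, minus strand) had means of 50.7 ± 7.58 and 40.1 ± 6.74 FPKM in THP-1 and 54.2 ± 4.91 and 53.5 ± 7.48 FPKM in U-937. Neighbouring groups in the order of these 2 genes overlapped throughout. ITGB1 (ENSG00000150093, chromosome 10, 32900318 to 33005792, minus strand), the β chain with the broadest choice of partners, was measured at 63.54, 67.96 and 51.16 FPKM in THP-1 with DMSO and at 64.37, 66.89 and 54.32 FPKM with honokiol. In U-937 ITGB1 was measured at 37.64, 35.68 and 40.70 FPKM with DMSO and at 45.89, 43.64 and 54.77 FPKM with honokiol. DMSO-treated U-937 cells thus stood below the 3 other groups, which overlapped with their neighbours in the order.

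ITGB7 (ENSG00000139626, chromosome 12, 53191323 to 53207281, minus strand), the β chain of the gut-homing integrin α4β7, was the lowest member in every group. It was measured at 2.22, 2.66 and 2.79 FPKM in THP-1 with DMSO and at 4.38, 7.79 and 6.58 FPKM with honokiol. In U-937 it was measured at 0.24, 0.53 and 0.32 FPKM with DMSO and at 0.93, 0.87 and 2.23 FPKM with honokiol. The treated libraries were above the DMSO libraries in both lines, and ITGB7 passed the limit for testing in U-937 through the 3 treated libraries and 1 DMSO library. ITGB7 overlaps ZNF740 on the opposite strand over 3820 bases, and the sources do not say whether the counting used the strand. ZNF740 had means of 6.69 ± 1.33 and 7.01 ± 0.579 FPKM in THP-1 with DMSO and honokiol and of 4.12 ± 0.730 and 4.86 ± 0.265 FPKM in U-937 (SD, n = 3 each), and its part in the ITGB7 values was not tested.

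ICAM1 (ENSG00000090339, chromosome 19, 10271093 to 10285583, plus strand), the inducible ligand of LFA-1 and Mac-1, had the largest spread within a group relative to its mean of all members, except in U-937 with honokiol, where that of ITGB7 was larger. It was measured at 8.67, 5.47 and 9.17 FPKM in THP-1 with DMSO and at 8.20, 11.53 and 17.42 FPKM with honokiol. In U-937 it was measured at 40.91, 18.30 and 14.78 FPKM with DMSO and at 18.36, 40.83 and 21.45 FPKM with honokiol. In U-937 a single library of each group stood near 41 FPKM and the others lay between 14.78 and 21.45 FPKM, so the treatments overlapped widely.

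**Figure D1:**
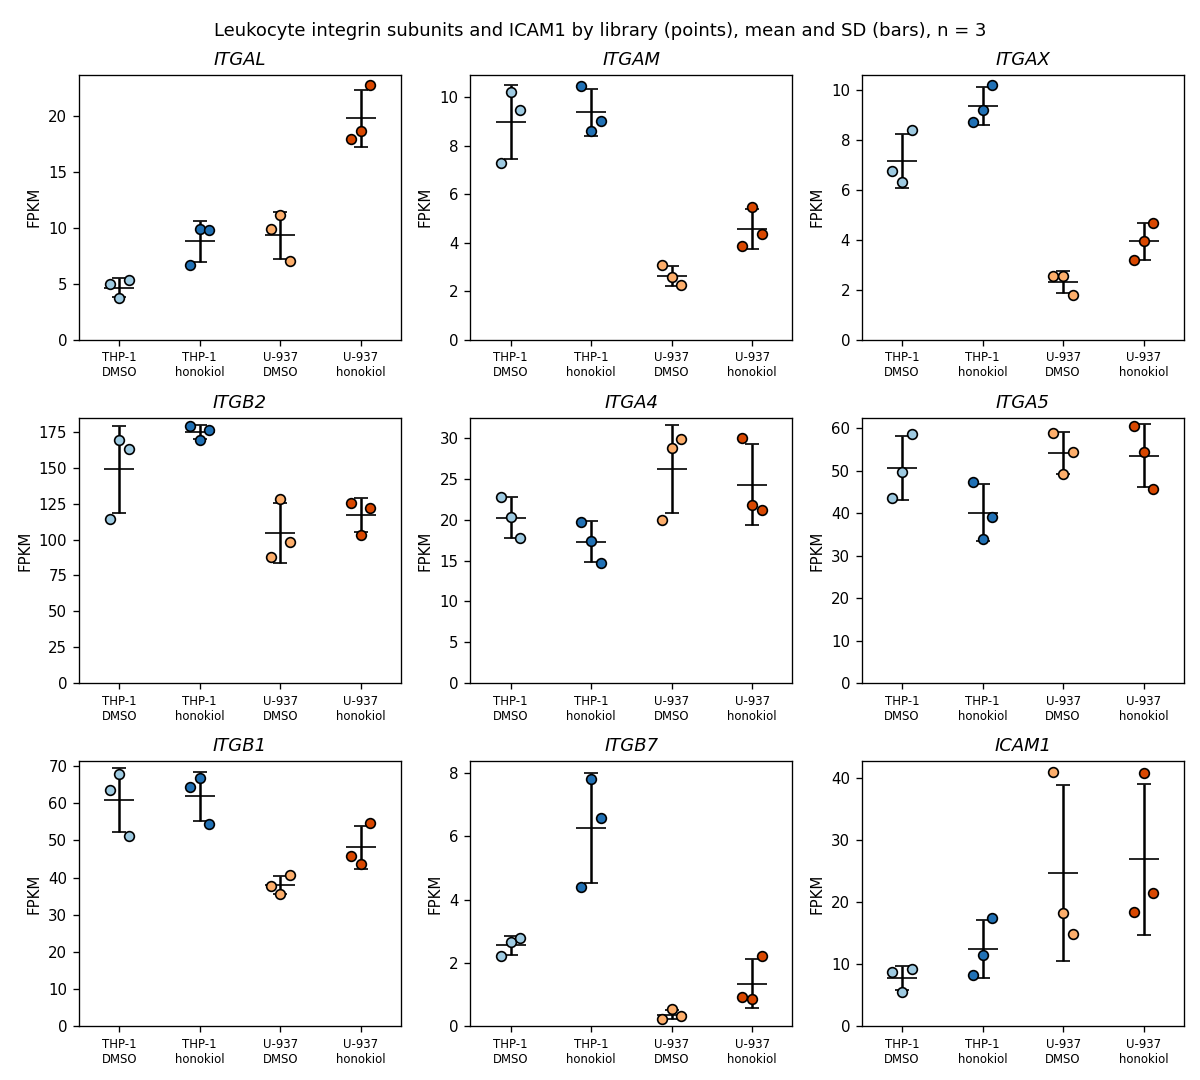
FPKM of the 9 genes in each library (points) by line and treatment, with the group mean (horizontal line) and SD (error bar), n = 3. ITGAL, ITGAX and ITGB7 lie higher with honokiol without overlap in both lines, ITGAM does so in U-937, and ICAM1 spreads from 14.78 to 40.91 FPKM within U-937 with DMSO.

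Promoter sequence was looked up for the members in the RefSeq table of GRCh38.p14, which held an entry for 6 of the 9 (ITGA4, ITGB1, ITGB7, ITGA5, ITGAM and ICAM1). Shown are the 250 bases before the RefSeq start of ITGB7, the member with the largest differences, of ITGAM, which separated the lines, and of ICAM1, which had the widest spread within a group. They lie at chr12:53207252-53207501 (minus strand), chr16:31259725-31259974 (plus strand) and chr19:10270870-10271119 (plus strand). Capitals mark the letters of 3 motifs, searched on both strands, that belong to factors known to act at myeloid or inflammatory promoters, namely GAGGAA (the core bound by PU.1), TTGCNNAA (C/EBP) and GGAANTTCC (NF-κB).
ITGB7: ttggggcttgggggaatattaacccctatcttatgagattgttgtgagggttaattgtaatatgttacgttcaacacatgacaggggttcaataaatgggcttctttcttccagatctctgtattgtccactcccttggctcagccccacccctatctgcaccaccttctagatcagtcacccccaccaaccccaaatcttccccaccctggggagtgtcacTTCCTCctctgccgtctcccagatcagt
ITGAM: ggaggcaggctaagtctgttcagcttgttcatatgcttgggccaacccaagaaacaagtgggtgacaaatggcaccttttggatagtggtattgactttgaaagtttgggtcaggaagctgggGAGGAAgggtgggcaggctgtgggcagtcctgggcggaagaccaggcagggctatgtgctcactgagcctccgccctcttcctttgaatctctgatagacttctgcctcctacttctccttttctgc
ICAM1: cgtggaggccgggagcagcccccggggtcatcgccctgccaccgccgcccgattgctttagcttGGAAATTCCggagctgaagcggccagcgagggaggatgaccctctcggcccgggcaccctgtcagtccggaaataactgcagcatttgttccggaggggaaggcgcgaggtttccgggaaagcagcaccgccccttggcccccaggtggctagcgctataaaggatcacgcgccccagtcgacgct
The PU.1 core was present in ITGB7 on the reverse strand, from position -28 before the start, and in ITGAM on the forward strand, from position -127. It was also present in the ITGB1 promoter, and 23.57% of the 35116 promoter windows of the table hold it. The NF-κB motif was present in ICAM1, from position -186, and 0.826% of the windows hold it. The C/EBP motif was present only in ITGA5 among the 6 members with an entry, and 9.05% of the windows hold it. The marked matches do not overlap each other. They describe the letters and do not show that a factor binds there.

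Whether honokiol altered the members was tested for THP-1 and U-937 separately with the quasi-likelihood test of edgeR. The estimated counts of all genes entered whose FPKM reached 0.5 in 3 or more of the line's 6 libraries. A gene was called when its Benjamini-Hochberg adjusted p was under 0.05 and its log2 fold change was beyond 1 in either direction. All 9 members were tested in each line and 0 were called, where the background was 0.0411% of 14600 genes for THP-1 and 0.0947% of 13726 for U-937. An unadjusted p under 0.05 was reached by 2 members with a higher level and 1 with a lower level in THP-1 (6.84% and 6.22% of all genes) and by 4 members with a higher level and 0 with a lower level in U-937 (8.25% and 8.44%). DESeq2 called 1 member, ITGB7, in each line, and limma on the FPKM values called 0 in each.

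The largest differences were those of ITGB7 and ITGAL, in both lines. For ITGB7 the log2 fold change in THP-1 was 1.23 (standard error 0.22, 95% interval 0.72 to 1.74, adjusted p = 0.124 by edgeR), which is 2.35-fold. In U-937 its log2 fold change was 1.78 (standard error 0.46, 95% interval 0.71 to 2.84, adjusted p = 0.147). The adjusted p of ITGB7 with DESeq2 was 0.000112 for THP-1 and 0.00428 for U-937, and without honokiol replicate 1 of THP-1 edgeR gave 1.43 with an adjusted p of 0.0449 there. Across the other alternatives the adjusted p of ITGB7 did not pass 0.05. Its log2 fold change in U-937 was smallest, 0.74, with a pseudocount of 1 on the FPKM scale.

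For ITGAL the log2 fold change was 0.86 in THP-1 (standard error 0.22, 95% interval 0.36 to 1.35, adjusted p = 0.208 by edgeR) and 0.99 in U-937 (standard error 0.20, 95% interval 0.52 to 1.46, adjusted p = 0.0957). With DESeq2 the adjusted p of ITGAL was 0.0212 for THP-1 and 0.00198 for U-937, with fold changes of 0.85 and 0.98 on the log2 scale, under the limit. ITGAL in U-937 is among the genes that the study displayed from these same libraries, so its direction there is not independent evidence. The other β2 α chains had larger estimates in U-937 than in THP-1, and the difference between the lines was called for neither. In U-937 ITGAM had a log2 fold change of 0.70 (95% interval 0.22 to 1.17, adjusted p = 0.175 by edgeR and 0.0489 by DESeq2) and ITGAX of 0.67 (95% interval 0.15 to 1.20, adjusted p = 0.212). In THP-1 the values were 0.01 for ITGAM (95% interval -0.33 to 0.36) and 0.33 for ITGAX (95% interval -0.01 to 0.67).

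The β chains ITGB2 and ITGB1 and the α chains ITGA4 and ITGA5 had small values in both lines. The value of ITGB2 was 0.19 in THP-1 (95% interval -0.17 to 0.55) and 0.07 in U-937 (95% interval -0.32 to 0.47). ITGA5 had the lowest value of the members, -0.39 in THP-1 (95% interval -0.76 to -0.01, adjusted p = 0.369 by edgeR), against -0.11 in U-937 (95% interval -0.47 to 0.25). For ITGA4 the values were -0.29 and -0.19, and for ITGB1 they were -0.04 and 0.25, all with intervals that include 0. ICAM1 had 0.61 in THP-1 (95% interval -0.10 to 1.31) and 0.00 in U-937 (95% interval -1.02 to 1.02). The interval for U-937 thus includes both a doubling and a halving of ICAM1. The ICAM1 value in THP-1 was 0.29 without honokiol replicate 3 and 0.39 without DMSO replicate 2. In bulk RNA, a change in the number of cells that carry a transcript and a change in the transcript per cell cannot be told apart.

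The treated libraries lay above the DMSO libraries without overlap for 4 of the 9 members in THP-1 (ITGAL, ITGAX, ITGB2 and ITGB7), where 13% of all tested genes did so, and for 5 of the 9 in U-937 (ITGAL, ITGAM, ITGAX, ITGB1 and ITGB7), where 16.7% did so. ITGAL, ITGAX and ITGB7 did so in both lines, as did 482 of the 12343 genes tested in both (3.91%). None of the 9 lay below without overlap, against backgrounds of 7.62% for THP-1 and 7.5% for U-937. Without DMSO replicate 1 of each line, 4 members lay above and ITGA5 lay below in THP-1 (16.9% and 15.5% of all genes), and 6 lay above in U-937, ICAM1 being added (21.1% of all genes). The median log2 fold change of the 9 members was 0.19 for THP-1 and 0.25 for U-937, and that of all tested genes was -0.0011 and 0.016.

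The difference between the lines in the response was tested in a fit of all 12 libraries. It was called at an adjusted p under 0.05 without a limit on the fold change. By edgeR it was called for 0 of the 9 members (0.111% of 16283 genes were called), and for 0 by DESeq2 and limma. Only ITGAM had an unadjusted p under 0.05, as did 9.37% of all genes, with a log2 fold change higher in U-937 by 0.67 (95% interval 0.12 to 1.23, adjusted p = 0.435). For ITGAL the difference was 0.12 (95% interval -0.57 to 0.81) and for ITGB7 it was 0.53 (95% interval -0.63 to 1.68). For ITGAX the difference was 0.33 (95% interval -0.27 to 0.93).

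**Figure D2:**
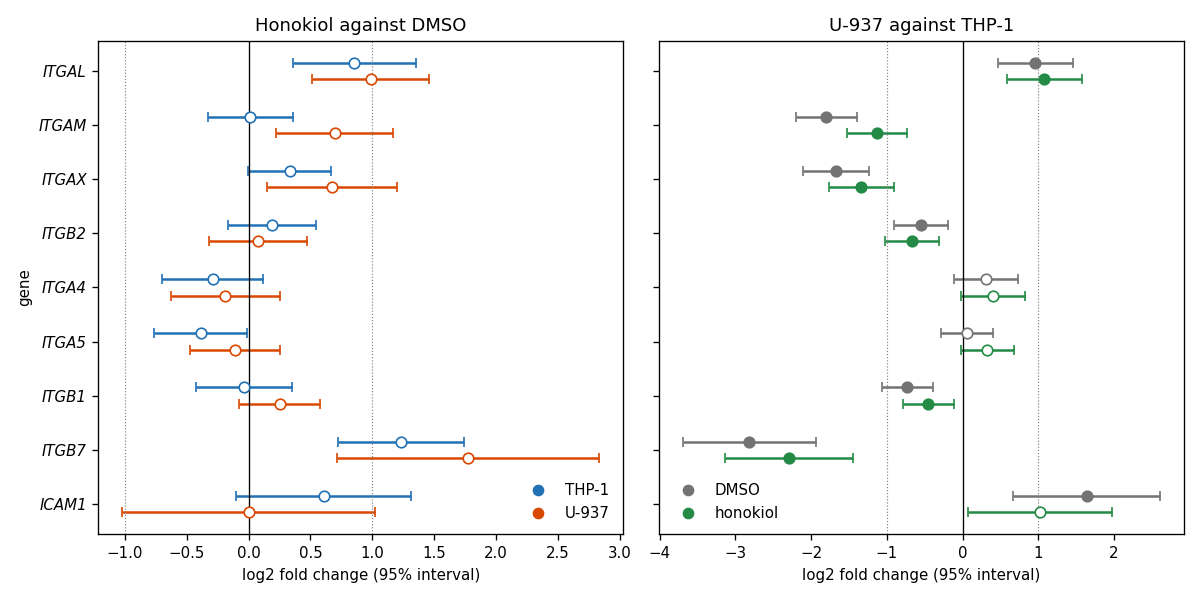
Log2 fold changes of the 9 genes from edgeR with 95% intervals, on the left for honokiol against DMSO in each line and on the right for U-937 against THP-1 with each treatment. Filled points have an adjusted p under 0.05, and dotted lines mark the limit of 1. No point is filled on the left, where ITGB7 reaches 1.78, and on the right ITGB7, ITGAM and ITGAX lie below the limit of -1 with both treatments.

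With DMSO, U-937 cells had lower ITGB7, ITGAM and ITGAX than THP-1 cells and higher ICAM1, so 4 of the 9 members were called, 1 higher and 3 lower. Of all 16283 genes 34% were called, 14.4% higher and 19.7% lower. ITGB7 had a log2 fold change of -2.82 in U-937 against THP-1 (standard error 0.40, adjusted p = 9.46e-05 by edgeR), ITGAM of -1.80 (standard error 0.19, adjusted p = 7.52e-06) and ITGAX of -1.67 (standard error 0.20, adjusted p = 2.36e-05). ICAM1 had 1.64 (standard error 0.44, adjusted p = 0.00811), and without DMSO replicate 1 of each line its value was 1.15 with an adjusted p of 0.0511. Without DMSO replicate 1 of U-937 alone, ICAM1 stood at the limit of 1 with an adjusted p of 0.0468 by edgeR. ITGAL was higher in U-937 by 0.96 (adjusted p = 0.00351), just under the limit on the fold change. Leaving out DMSO replicate 1 or 3 of THP-1 or DMSO replicate 3 of U-937 brought it over the limit, to between 1.02 and 1.15.

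ITGB1 was lower in U-937 by a smaller amount (log2 fold change -0.73, adjusted p = 0.00167 by edgeR), as was the shared chain ITGB2 (-0.55, adjusted p = 0.0134). The differences of ITGA4, 0.31 (95% interval -0.12 to 0.73), and of ITGA5, 0.06 (95% interval -0.29 to 0.41), did not pass. At any fold change, 2 members were higher and 5 lower with an adjusted p under 0.05, where 24.4% and 28.5% of all genes were. The groups did not overlap for 2 members that were higher and 4 that were lower, against 27.7% and 29% of all genes. The median of the members was -0.55, and that of all tested genes was -0.047.

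With honokiol, ITGB7 (log2 fold change -2.29, adjusted p = 0.000385 by edgeR), ITGAX (-1.34, adjusted p = 0.000133) and ITGAM (-1.13, adjusted p = 0.000267) were again lower in U-937 than in THP-1, and ITGAL was called higher (1.08, adjusted p = 0.00174). Of all genes 32.2% were called, 13.8% higher and 18.5% lower. At any fold change, 1 member was higher and 5 lower with an adjusted p under 0.05 (24.1% and 27.3% of all genes), and the groups did not overlap for 3 that were higher and 4 that were lower (33.7% and 30.8%). Without honokiol replicate 1 of THP-1 or honokiol replicate 3 of U-937, the ITGAL value was 0.90 or 0.95, under the limit. ICAM1 had 1.03 with an adjusted p of 0.0685, and this passed with DESeq2 (1.001, adjusted p = 0.0362), with limma, and without honokiol replicate 3 of THP-1 (1.34, adjusted p = 0.0465) or DMSO replicate 1 of U-937 (1.02, adjusted p = 0.0289). The ICAM1 value was 0.61 (adjusted p = 0.29 by edgeR) without honokiol replicate 2 of U-937 and 0.79 (adjusted p = 0.21) without honokiol replicate 1 of THP-1. These comparisons use the same libraries as the comparisons of the treatments, and the doses of the lines may differ.

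The make-up of the β2 α chains differed between the lines. ITGAL accounted for 22.4 ± 3.92% of the summed FPKM of ITGAL, ITGAM, ITGAX and ITGAD in THP-1 with DMSO and for 60.7 ± 2.14% in U-937 with DMSO (SD, n = 3 each). ITGAM accounted for 43.2 ± 6.40% and 17.4 ± 2.52%, and ITGAX for 34.4 ± 2.68% and 15.05 ± 0.659%. In each line the mean share of ITGAL was higher with honokiol, 31.8 ± 5.30% in THP-1 and 66.1 ± 1.91% in U-937, without overlap in U-937 and with overlap in THP-1, where honokiol replicate 1 (25.7%) lay below DMSO replicate 1 (26.0%). These shares rest on the same values as the tests above and are given as a description.

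The sum of the 4 α chains was 20.8 ± 2.16 FPKM in THP-1 with DMSO and 27.5 ± 1.63 with honokiol, and 15.3 ± 2.96 and 29.9 ± 3.73 FPKM in U-937 (SD, n = 3 each). ITGB2 stood at 7.14 ± 1.17 times that sum in THP-1 with DMSO and at 6.37 ± 0.492 times with honokiol. In U-937 it stood at 6.94 ± 1.41 times with DMSO and at 3.95 ± 0.666 times with honokiol, without overlap. ITGB1 exceeded ITGB7, the other partner of ITGA4, 24.2 ± 5.28 times in THP-1 with DMSO and 10.5 ± 3.63 times with honokiol. In U-937 the ratio was 117 ± 45.6 with DMSO and 41.4 ± 14.6 with honokiol. ITGB7 mRNA was thus the minor β chain in all 4 groups.

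**Figure D3:**
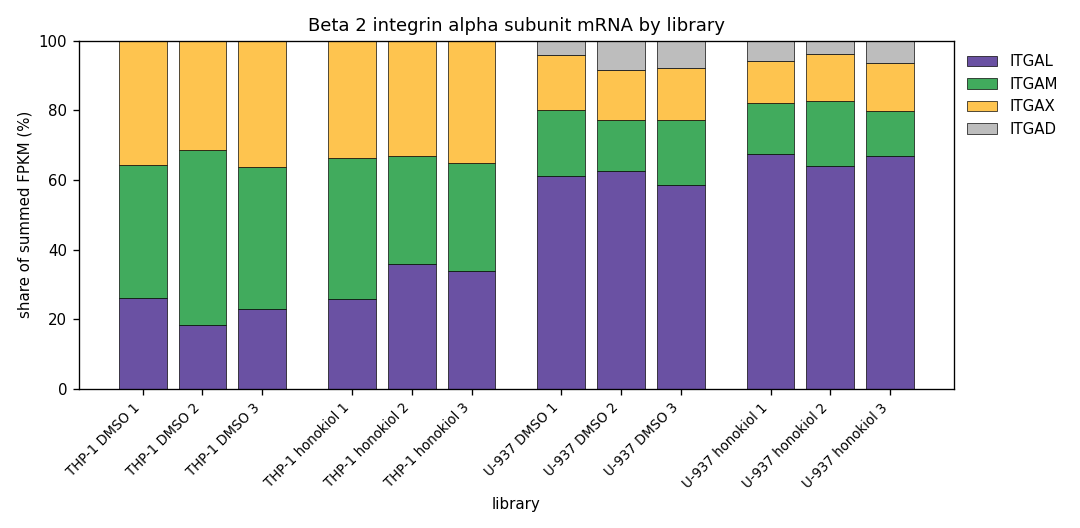
Share of ITGAL, ITGAM, ITGAX and ITGAD in their summed FPKM (%), 1 bar for each library. ITGAL makes up 18.2% to 35.7% in the THP-1 libraries and 58.4% to 67.5% in the U-937 libraries, and ITGAD is visible in U-937 alone.

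ITGAD, the fourth partner of ITGB2, had counts of 0, 0 and 0 in THP-1 with DMSO and of 204, 543 and 321 in U-937 with DMSO, at least 112-fold higher when 3 counts per library are taken as the floor. With honokiol it had 3, 0 and 7 counts in THP-1 and 497, 332 and 659 in U-937. Of 18 other subunits, 10 were tested between the lines with DMSO, and 3 were called higher and 4 lower in U-937, where 14.4% and 19.7% of all genes were. Besides ITGAD, the laminin receptor chains ITGA6 (3.33 ± 0.724 FPKM in THP-1 and 30.7 ± 1.02 in U-937, log2 fold change 3.15, adjusted p = 2.50e-06 by edgeR) and ITGA3 (0.173 ± 0.0757 and 2.70 ± 0.924 FPKM, 3.91, adjusted p = 5.10e-06) were higher. Among the 4 lower ones were ITGAV, the α chain of the vitronectin receptors (6.78 ± 0.414 and 1.69 ± 0.446 FPKM, -2.05, adjusted p = 2.11e-06), the platelet chain ITGA2B (0.723 ± 0.481 and 0.0100 ± 0.0100 FPKM) and ITGA9 (2.49 ± 1.18 and 0.283 ± 0.0551 FPKM, -3.20, adjusted p = 9.49e-05). With honokiol the counts called were again 3 higher and 4 lower (13.8% and 18.5% of all genes). Several of the called subunits passed the limit for testing through the libraries of a single line. ITGAD and ITGA3 stayed at or under 0.02 and 0.26 FPKM in every THP-1 library. ITGA2B and ITGA9 stayed at or under 0.02 and 0.47 FPKM in every U-937 library. For such genes the filter already favoured a difference between the lines, so these counts are given as a description.

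Of 14 other ligands of the integrins, 7 were tested between the lines with DMSO, with 1 called higher and 2 lower in U-937, against the same background of 14.4% and 19.7%. ICAM4, a red cell ligand of the β2 integrins, was at 0.517 ± 0.156 FPKM in THP-1 and 4.89 ± 0.454 in U-937 (log2 fold change 3.16, adjusted p = 8.54e-06 by edgeR). F11R (JAM-A), a ligand of LFA-1, was lower (26.5 ± 4.37 and 7.45 ± 3.73 FPKM, -1.87, adjusted p = 0.000449), as was fibronectin, FN1 (1.54 ± 0.770 and 0.230 ± 0.0608 FPKM, -2.77, adjusted p = 0.000884). ICAM3, a constitutive ligand of LFA-1, was at 12.98 ± 3.09 and 12.9 ± 3.14 FPKM and was not called. VCAM1 is not listed in the table. FN1 stayed at or under 0.27 FPKM in every U-937 library. It thus entered the fit through the THP-1 libraries alone, where the filter already favoured a difference between the lines. The counts of the ligands are therefore given as a description.

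The list of integrin activation and tail adaptors also holds genes that oppose activation, such as SIPA1. Of its 20 genes tested, 4 were called higher and 5 lower in U-937 with DMSO, where 34% of all genes were called in either direction. The kindlin of hematopoietic cells, FERMT3 (74.7 ± 15.4 and 74.1 ± 9.58 FPKM), and talin, TLN1 (61.1 ± 1.91 and 68.0 ± 3.30 FPKM), were high in both lines and were not called. Higher in U-937 were the epithelial kindlin FERMT1 (log2 fold change 2.85, adjusted p = 6.64e-07 by edgeR), TLN2 (2.27, adjusted p = 0.000126) and CYTIP (1.76, adjusted p = 0.000271), which binds cytohesin. Lower were cytohesin-1, CYTH1 (-1.82, adjusted p = 7.63e-07), which binds the β2 tail, the GTPase RAP1B (-1.28, adjusted p = 1.26e-05) and SIPA1 (-1.30, adjusted p = 2.12e-05), which inactivates RAP1.

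Of 27 genes tested for integrin signaling and focal contacts, 2 were called higher and 10 lower in U-937 with DMSO. This and the counts of the next 2 lists stand against 14.4% of all genes called higher and 19.7% called lower. The kinase FYN (5.13 ± 0.509 and 0.683 ± 0.0874 FPKM, log2 fold change -2.94, adjusted p = 1.48e-07 by edgeR), the ubiquitin ligase CBL (-1.63, adjusted p = 8.11e-07) and the parvin PARVG (-1.62, adjusted p = 1.46e-06) had the smallest p among those lower. Paxillin, PXN (1.07, adjusted p = 0.000784), and the kinase FGR (1.10, adjusted p = 0.0183) were higher. Of 15 other adhesion genes and tetraspanins, 1 was called higher and 5 lower. Lower were the tetraspanins CD81 (21.6 ± 5.48 and 0.0833 ± 0.0208 FPKM), CD9 (8.29 ± 3.97 and 0.437 ± 0.0757 FPKM) and CD63 (195 ± 49.0 and 63.1 ± 12.1 FPKM). CD81 stayed at or under 0.15 FPKM in every U-937 library. In the signaling list PTK2 and BCAR1 stayed at or under 0.03 and 0.05 FPKM there. Such genes entered the fit through the THP-1 libraries alone, so the filter already favoured a difference. The counts of these lists are therefore given as a description. Of 14 myeloid and NF-κB transcription factors, CEBPE was called higher (1.303, adjusted p = 0.000598) and IRF8 lower (-1.32, adjusted p = 0.000217). SPI1, which encodes PU.1, was at 96.9 ± 38.8 FPKM in THP-1 and 64.4 ± 15.8 in U-937 with DMSO and was not called. Between the honokiol-treated lines, where 13.8% of all genes were called higher and 18.5% lower, 1 ligand was called higher and 2 lower. Of the activation and tail adaptor genes 4 were called higher and 4 lower. In the same comparison 0 signaling genes were called higher and 9 lower, 2 other adhesion genes higher and 5 lower, and 1 transcription factor higher and 2 lower. CD58, a ligand of CD2 (log2 fold change 1.37, adjusted p = 0.0012 by edgeR), and CEBPA, a C/EBP factor of early myeloid cells (-1.19, adjusted p = 0.000829), were called there and not with DMSO, and the difference between the treatments was not called for either gene.

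With honokiol against DMSO, edgeR called 0 genes of these 6 lists in either line, and 0 for the difference between the lines. At an unadjusted p under 0.05, 2 of 8 other integrin subunits were higher and 0 lower in THP-1, and 4 of 7 were higher and 0 lower in U-937. Of all genes 6.84% were higher and 6.22% lower in THP-1 at this limit, and 8.25% and 8.44% in U-937, and the counts below are to be read against these shares. For integrin signaling the counts were 1 higher and 5 lower of 27 in THP-1 and 3 higher and 3 lower of 24 in U-937. For the activation and tail adaptor genes they were 1 higher and 2 lower of 20 in THP-1 and 3 higher and 1 lower of 20 in U-937. For the ligands they were 0 higher and 1 lower of 7 in THP-1 and 0 of 5 in U-937, for the other adhesion genes 0 higher and 3 lower of 14 in THP-1 and 0 of 14 in U-937, and for the transcription factors 1 higher and 4 lower of 14 in THP-1 and 2 higher and 3 lower of 14 in U-937. The other integrin subunits had a median log2 fold change of 0.32 for THP-1 and 0.55 for U-937, and the remaining lists had medians between -0.21 and 0.18.

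DESeq2 called 4 genes of the lists in THP-1, namely ITGA6, SPP1, FGR and CEBPB, and 2 in U-937, FGR and CEBPB, and limma called CEBPB in U-937. Of all genes, DESeq2 called 250 of 14600 in THP-1 and 223 of 13726 in U-937, and limma called 16 in U-937. The list genes called were named after their values were seen. FGR, a Src-family kinase of myeloid cells that acts downstream of the β2 integrins, was at 9.65 ± 1.64 FPKM in DMSO-treated THP-1 and at 39.99 ± 16.1 FPKM after honokiol (log2 fold change 1.99, adjusted p = 0.0830 by edgeR). In U-937 FGR was at 21.2 ± 7.87 and 83.0 ± 14.1 FPKM (1.87, adjusted p = 0.0687). CEBPB, which encodes a C/EBP factor of monocytes, was at 48.1 ± 12.03 and 152 ± 35.5 FPKM in THP-1 (1.62, adjusted p = 0.0607) and at 50.4 ± 7.97 and 115 ± 2.23 FPKM in U-937 (1.10, adjusted p = 0.0624). ITGA6 was at 3.33 ± 0.724 and 9.97 ± 3.78 FPKM in THP-1 (1.51, adjusted p = 0.167) and at 30.7 ± 1.02 and 57.3 ± 2.55 FPKM in U-937 (0.81, adjusted p = 0.0607).

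**Figure D4:**
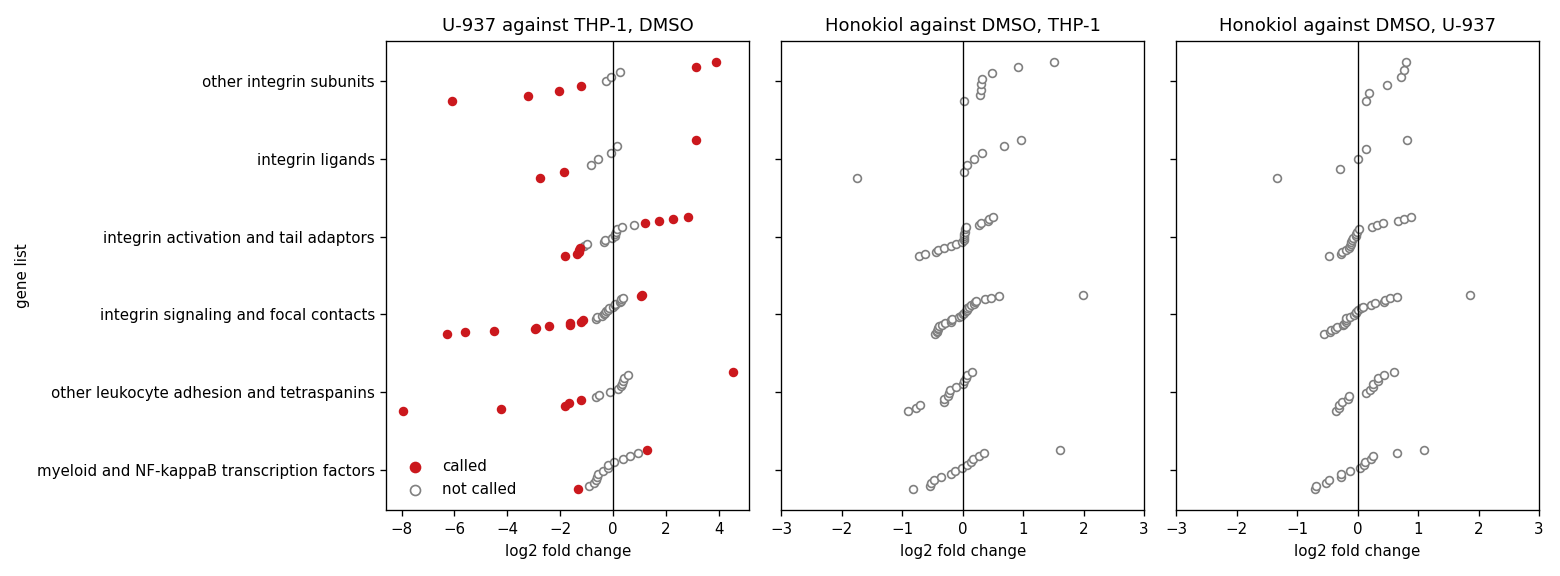
Log2 fold changes of the tested genes of 6 lists of the integrin pathway from edgeR, 1 point for each gene, for U-937 against THP-1 with DMSO (left) and for honokiol against DMSO in THP-1 (middle) and U-937 (right). Filled points are called (adjusted p under 0.05 and absolute log2 fold change over 1), and ITGAD, with counts of 0 in THP-1 with DMSO, is left out. The genes called lie on the left alone, where CD81 reaches -7.95.

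For the 5 members whose group means spanned more than 1 on the log2 scale, the genes with the most similar profile over the 12 libraries were found by the mean absolute difference of log2(FPKM + 0.5) around each gene's own mean, among 11363 genes. ITGAL was most like CTSD (difference 0.15), which encodes the lysosomal protease cathepsin D, with means of 297, 552, 513 and 1122 FPKM in the order THP-1 with DMSO, THP-1 with honokiol, U-937 with DMSO and U-937 with honokiol. The next were ACSL1 (0.16), an acyl-CoA synthetase, and SLC31A1 (0.19), a copper transporter. ITGAM was most like GOLPH3L (0.11), PKD2 (0.12) and TRG-AS1 (0.14), and ITGAX was most like ANXA5 (0.13), FRRS1 (0.13) and CTTNBP2NL (0.14). ITGB7 had MMP19 (0.19), a matrix metalloproteinase, as its nearest gene, with means of 1.98, 3.55, 0.113 and 0.830 FPKM in the same order, followed by APLP2 (0.25) and EDEM1 (0.27). ICAM1 was less close to its nearest genes, CILP2, SOD2 and SULT1A1, at 0.25 each. These are descriptions over libraries that share line and treatment.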

How the data were processed

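Poly(A) mRNA from 12 libraries of THP-1 or U-937 cells was sequenced. For each gene and library the deposited table gives an FPKM value, scaled by the authors for the length of the gene's transcripts and for depth, and an estimated count without normalization by the authors. The submitters' processing notes list Bowtie 0.12.2, HISAT2 2.0, StringTie 1.3.0 and mm8 with no role. The coordinates are human GRCh38, since 35724 of 35762 genes found in GENCODE 29 overlap their annotation on the same strand. The use of the strand in counting is not given in the sources used here. The counts are estimates in which the value 4 (17264 times) is far more frequent than 3 (6764) or 5 (4016), and how the sums relate to the number of fragments was not tested.

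Counts were normalized by TMM and tested by edgeR 4.0.16 (R 4.3.3) within each line, and in a fit of all 12 libraries for the lines and the difference in response. Genes entered when their FPKM reached 0.5 in 3 or more libraries of the fit, and p-values were adjusted over all genes tested. A gene could thus enter the fit of all 12 libraries through the libraries of a single line. The criterion of a call is that of the study's methods, which name no test. For the difference in response the limit on the fold change was left out. At this criterion the study reports far more differentially expressed genes in each line than edgeR called here, so the calls here are not those of the study. The test was checked on simulated counts. Alternatives were RLE size factors, other filters, DESeq2 1.42.0, limma 3.58.1 on log2(FPKM + 0.5), counts divided by 4, mitochondrial genes left out, a replicate block, a single fit, and each library left out. Leaving out DMSO replicate 1 of each line was added after the data were seen. The 9 members and 6 gene lists were chosen with earlier results of these data known. From each list, up to 3 genes called higher and 3 called lower with the smallest p are named, and others were named after their values were seen. The values of 1 gene that this rule names and of 1 marker list are not reported here.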

Additional observations from a re-analysis of the deposited data

How the results depend on the processing

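The count of members called with honokiol was 0 in each line by edgeR and 1 by DESeq2, ITGB7 in each, where DESeq2 called 250 and 223 of all genes for THP-1 and U-937 against 6 and 13 by edgeR. With each library left out in turn it was 0 to 1 in THP-1, the 1 being ITGB7 without honokiol replicate 1, and 0 in U-937. The count for the difference between the lines was 0 in all alternatives, and that for the lines was 3 to 5 with either treatment. The labels do not say whether libraries with the same replicate number belong together. Deviations from the group means correlated at -0.23 to 0.15 for the same numbers and at -0.17 to 0.35 for other numbers, and 1 DMSO library correlated best with its own number. The same numbers thus did not stand out. These correlations are few and depend on each other, because the deviations within a group sum to 0, so they do not settle whether libraries belong together. With the replicate block the counts were 0, 0, 0, 4 and 4, as without it, and no call of a member changed, while the counts over all genes with honokiol fell from 6 and 13 to 0 and 0.

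Several values turned sign under some alternatives, and the cause was not tested. Not all were near 0 in the main test, where the difference between the lines was 0.53 for ITGB7 and -0.61 for ICAM1. In THP-1, ITGAM was -0.0006 with filterByExpr and -0.0791 without DMSO replicate 1 of each line (0.01 in the main test), and ITGB1 was 0.0272, 0.0274 and 0.0269 with limma at pseudocounts of 0.5, 0.1 and 1 and 0.045 without these libraries (-0.04). In U-937, ICAM1 (0.00) was -0.0112 with RLE size factors, -0.0105 without a filter, -0.0148 with filterByExpr, -0.0115 with DESeq2, -0.008 without mitochondrial genes and -0.008 in a single fit, and ITGB2 was -0.0197 without DMSO replicate 1 of each line (0.07). For the difference between the lines, ITGB7 was -0.0811 and -0.26 with limma at pseudocounts of 0.5 and 1 (0.53), and ITGA4 was -0.19 without DMSO replicate 1 of each line (0.09). ITGA5 in U-937 against THP-1 with DMSO was -0.10 without them (0.06). With each library left out, the range was -0.0791 to 0.0919 for ITGAM and -0.17 to 0.0586 for ITGB1 in THP-1, -0.0197 to 0.23 for ITGB2 and -0.41 to 0.63 for ICAM1 in U-937, and -0.0489 to 0.14 for ITGA5 between the lines with DMSO. For the difference between the lines it was -0.0734 to 0.28 for ITGAL, -0.21 to 0.0389 for ITGB2, -0.0908 to 0.20 for ITGA4, -0.0616 to 0.89 for ITGB7 and -1.03 to 0.018 for ICAM1. The ITGAM difference between the lines with honokiol was under the limit on the fold change with limma at 0.5 (-0.97) and 1 (-0.90). With 3 libraries a group, the 95% interval reached from -1.02 to 1.02 for ICAM1 in U-937.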
